A study of Mus musculus with 21 samples.

Results

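Nuclear receptors are transcription factors that bind DNA directly, and many of them are switched by a small lipid-soluble ligand such as a steroid, thyroid hormone or a retinoid. The set described here holds 9 mouse genes of this superfamily outside the PPAR, glucocorticoid and vitamin D branches. It comprises the retinoic acid receptors Rara and Rarg, the thyroid hormone receptor Thra, the mineralocorticoid receptor Nr3c2, the oestrogen receptor Esr1, the COUP-TF orphan receptors Nr2f1, Nr2f2 and Nr2f6, and the retinoid-related orphan receptor Rora. They were chosen by name: every probe set whose symbol in the platform annotation is one of the 9, and per gene the probe set with the highest mean over 21 arrays, out of 18194 genes measured. In all, 28 probe sets carried these symbols. A filter for dim genes, which asked for 3 or more arrays above a threshold of 5.34 log2 units, the median over the whole table, kept 12156 genes and 8 of the 9 members. Esr1 did not pass it.

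The arrays came from 3T3-L1 adipocytes, a mouse preadipocyte line that is turned into fat cells in culture, here over 14 days. Cells were harvested after 2 h, 24 h or 6 d with 20 nM dexamethasone (Dex), a synthetic glucocorticoid, after 2 h, 24 h or 6 d with the inflammatory cytokine tumor necrosis factor alpha (TNF), or untreated at 0 h, as the control shared by both treatments. Each of the 7 groups had 3 arrays that the labels call biological replicates of this 1 cell line, and all were differentiated cells, so no preadipocyte baseline is part of the comparisons. Untreated cells were harvested at 0 h only. In changes against control or between times, treatment and time in culture therefore cannot be told apart. The question, per the design, was how expression changed over time as either agent made adipocytes insulin resistant.

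One array stood apart. TNF 6 d replicate 2 had the narrowest spread of values (standard deviation over probe sets 2.04, against 2.44 to 2.51 for the remaining 20), and its control probe sets for RNA integrity read 2.00 log2 units higher at the 3′ than at the 5′ end, against 0.0210 to 0.777 elsewhere. Its highest correlation with an array of its own group was 0.844, against 0.981 to 0.998 for the others, and results are therefore given with and without it. Of the adipocyte marker genes listed, 7 of 8 measured lay above the threshold in all arrays of every group. Their mean level per array was 10.57 to 11.07 in TNF 24 h, 10.72 to 11.15 in TNF 6 d and 11.86 to 11.91 in control arrays, so the list's mean was lower with TNF. Cidec, Lipe, Pnpla2, Slc2a4 and Retn were lower in TNF 24 h. Adipoq (14.62 against 14.88 in control) and Fabp4 (14.86 against 14.93) differed little there. Of 8 preadipocyte and fibroblast markers, 6 of 7 measured lay above it in all arrays of every group. Their mean level per array was 8.84 to 9.09 in Dex 6 d, 10.08 to 10.41 in TNF 6 d and 9.64 to 9.90 in control arrays. Among them, the collagen Col1a1 fell by 2.44 and the PDGF receptor Pdgfrb fell by 1.65 in Dex 6 d, and Pdgfra rose by 1.43 in TNF 6 d. In Dex 6 d Dlk1 and Thy1 were lower than control as well, but Pdgfra (11.71 against 11.33 in control) and Vim (13.46 against 13.09) were higher. In TNF 6 d Pdgfrb, Thy1, Vim and Col1a1 were also higher than control, and Dlk1 was lower (9.91 against 10.29). Cd34 was dim. Of 8 macrophage markers, 3 were above the threshold in all TNF 24 h arrays, against 2 in all control arrays, and of 6 endothelial markers 1 was above it in both groups. Of the 4 macrophage markers tested, 2 were called higher and 0 lower in TNF 24 h by the test below, Cd14 (1.77) and Cd68 (1.57). Of all genes, 5.41% were called higher there. Without the outlying array 3 of these 4 were higher, with 13.2% of all genes. In TNF 6 d Cd14 was higher (1.77), but Cd68 was not (4.99 against 5.21 in control). The part of these shifts in the receptor values was not tested, and in such bulk samples fewer cells of a type and less RNA per cell cannot be told apart.

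In adipose tissue, retinoic acid receptors restrain the conversion of precursors into fat cells and drive retinoid-metabolising enzymes, thyroid hormone receptor alpha mediates effects of thyroid hormone on lipid turnover, and the mineralocorticoid receptor binds the same corticosteroid hormones as the glucocorticoid receptor. COUP-TF proteins bind direct repeats of AGGTCA with variable spacing and often compete with other nuclear receptors for them. ROR proteins bind a single AGGTCA preceded by an A/T-rich stretch and take part in the circadian clock and lipid metabolism.

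RefSeq promoter windows (GRCm38.p6, 250 bases before to 50 bases after a transcript start) were found for 8 of the 9 members, 14 windows in all. Thra had no entry. The windows below belong to the 3 receptors that differed between Dex and TNF at 2 h, the earliest time. Capitals mark a match to a searched motif on either strand; for Rarg the capitals read AGGTCA on the opposite strand, for Rara they match the NF-kB (kB) consensus, and the Nr2f2 window, shown in lower case, held none. The Rarg window is chr15:102257473-102257772 (minus strand), the Rara window chr11:98937446-98937745 (plus strand) and the Nr2f2 window chr7:70366697-70366996 (minus strand).
Rarg: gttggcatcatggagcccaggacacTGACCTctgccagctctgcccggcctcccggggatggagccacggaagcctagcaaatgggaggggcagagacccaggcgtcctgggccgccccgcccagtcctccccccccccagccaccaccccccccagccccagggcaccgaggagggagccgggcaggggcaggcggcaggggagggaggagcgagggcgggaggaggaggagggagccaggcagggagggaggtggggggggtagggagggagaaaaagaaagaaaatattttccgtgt
Rara: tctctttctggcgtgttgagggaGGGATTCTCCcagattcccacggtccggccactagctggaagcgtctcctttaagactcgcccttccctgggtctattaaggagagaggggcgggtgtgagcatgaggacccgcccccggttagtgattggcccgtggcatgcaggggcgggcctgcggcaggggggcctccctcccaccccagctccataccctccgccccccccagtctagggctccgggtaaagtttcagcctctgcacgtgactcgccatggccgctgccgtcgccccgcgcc
Nr2f2: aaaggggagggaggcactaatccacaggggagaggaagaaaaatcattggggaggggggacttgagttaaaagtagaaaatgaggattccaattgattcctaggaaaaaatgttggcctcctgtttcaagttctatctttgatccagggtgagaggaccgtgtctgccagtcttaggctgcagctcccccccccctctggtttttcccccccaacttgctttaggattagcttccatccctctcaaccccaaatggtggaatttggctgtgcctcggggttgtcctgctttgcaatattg

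The motifs searched on both strands were AGAACA, the core of the glucocorticoid response element, its palindrome of 2 such cores 3 bases apart, AGGTCA, the core bound by many nuclear receptors, the AP-1 site (TGA and TCA with any base between them), and the kB consensus. None of the 14 member windows held AGAACA, its palindrome or the AP-1 site. AGGTCA occurred in the Rarg window above and in 1 further Rara window (chr11:98964622-98964921), and the kB consensus in the Rara window above and in a second one that overlaps it. Of 32851 windows of all genes, 19% held AGAACA, 0.00913% the palindrome, 16.3% AGGTCA, 7.81% the AP-1 site and 4.51% the kB consensus.

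Few of the receptors' differences were called, and most calls lay between the 2 treatments, where more genes of all kinds were called as well. The test was limma on the log2 values of all 21 arrays with 1 mean per group, and a gene was called at a Benjamini-Hochberg adjusted p below 0.05 over the 12156 genes. Over 13 comparisons, 10 of 104 member tests were called: 1 of 48 against control, 6 of 24 between Dex and TNF, and 3 of 32 between neighbouring times. Without the outlying array 22 were called, 8 of them against control, on Thra, Nr2f2, Nr2f6, Rarg and Nr2f1. With 3 arrays a group, the p-values measure the spread between these cultures only, and an exact permutation test of 1 gene could not go below 0.1.

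**Figure D1:**
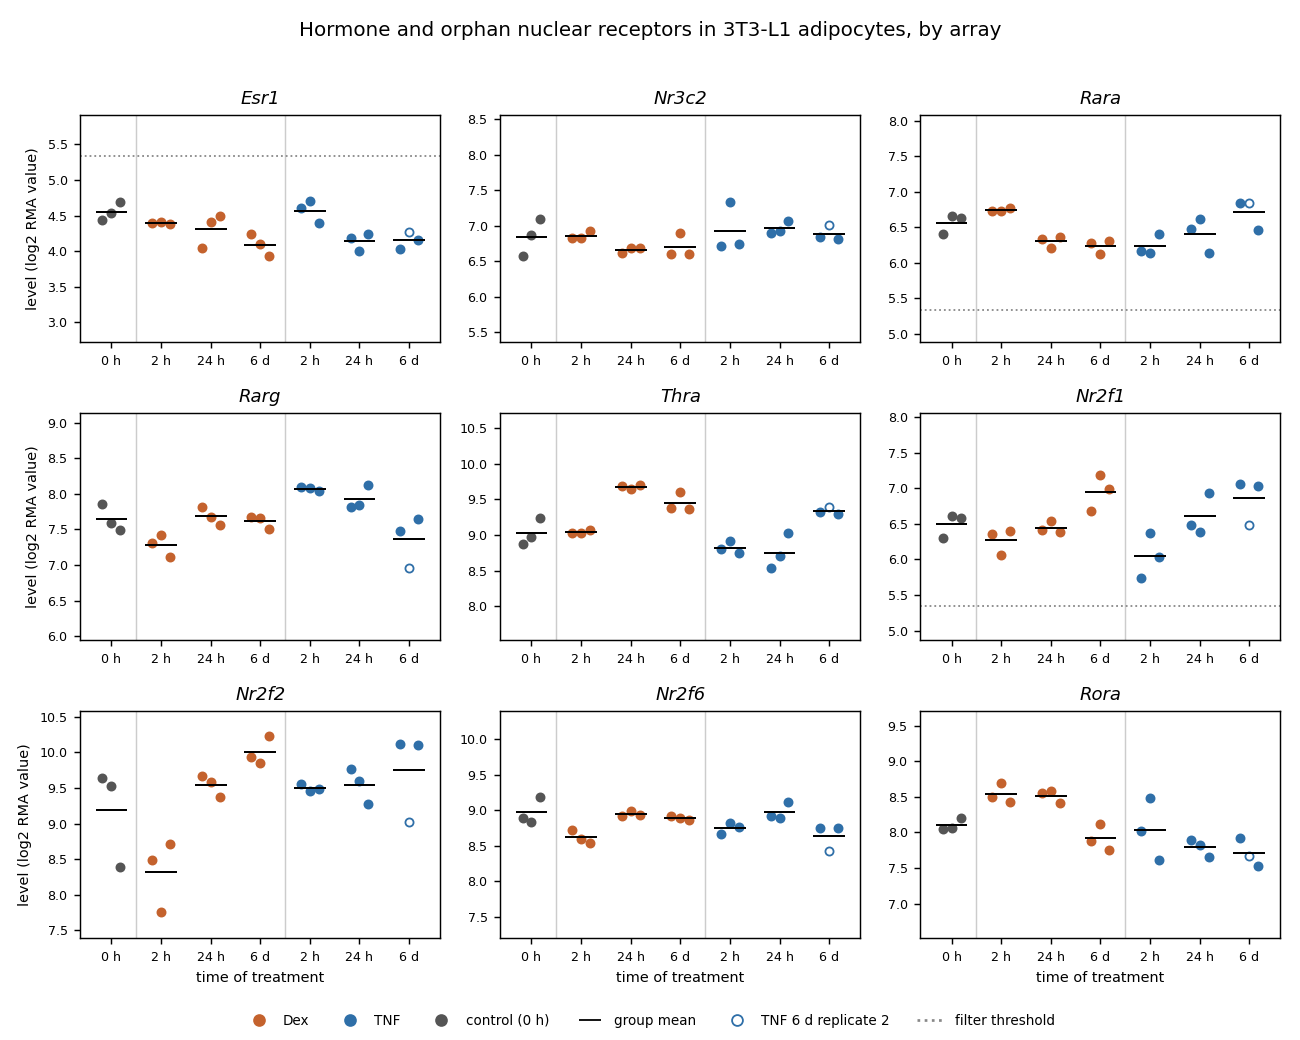
Level (log2 RMA value) of each of the 9 receptors on every array, by time of treatment with Dex (orange) or TNF (blue) after the control at 0 h (grey); lines are group means, the open point is TNF 6 d replicate 2, the dotted line is the filter threshold of 5.34, and all panels span the same number of log2 units. Nr2f2 is lowest in Dex 2 h, Thra is highest in Dex 24 h, and all Esr1 points lie below the threshold.

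Against control, the counts of called members stood near the share of all genes called. At 2 h of Dex 0 of 8 members were called by limma (4 at an unadjusted p under 0.05), and 2.48% of all tested genes were. At 24 h of Dex it was 1 of 8, Thra, with 4.18% of all genes, and at 6 d of Dex 0 of 8 (4 unadjusted) with 8.3%. For TNF it was 0 of 8 at 2 h (3 unadjusted), at 24 h (0 unadjusted) and at 6 d (2 unadjusted), where 3.82%, 8.69% and 15.2% of all genes were called. Without TNF 6 d replicate 2, the calls were 2, 1 and 2 of 8 for Dex at 2 h, 24 h and 6 d, and 1, 0 and 2 of 8 for TNF. The shares of all genes were then 7.12%, 13.2% and 24% for Dex, and 10.7%, 25.6% and 20.5% for TNF.

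Dex against TNF gave 3 of 8 called members at 2 h, 2 of 8 at 24 h and 1 of 8 at 6 d. Of all genes, 5.97%, 13.5% and 23.7% were called in these comparisons, and 14.8%, 33% and 30.1% without the outlying array, which left the members' counts at 3, 2 and 1. At 6 d the members' 1 of 8 was below the share of all genes in both fits, and at 24 h their 2 of 8 was above it with all arrays and below it without that array. At 2 h their 3 of 8 was above it in both, a difference that was not tested. Between neighbouring times, 2 of 8 members were called for Dex 24 h against Dex 2 h (3.62% of all genes) and 1 of 8 for TNF 6 d against TNF 24 h (5.99%). For Dex 6 d against Dex 24 h and TNF 24 h against TNF 2 h limma called 0 of 8, with 2 and 1 at an unadjusted p under 0.05, and 0.683% and 5.69% of all genes. Without that array the counts between times were 5 of 8 for Dex 24 h against Dex 2 h, with 13.5% of all genes, and 1 of 8 in each of the others, with 4.5% for Dex 6 d against Dex 24 h, 22.1% for TNF 24 h against TNF 2 h and 9.2% for TNF 6 d against TNF 24 h. Comparisons that share the control or another group are not independent of each other.

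The gene lists given below with each receptor are to be read against the shares of all genes called in each direction. With all arrays, 1.66%, 2.06% and 3.22% of genes were called higher and 0.814%, 2.11% and 5.08% lower at 2 h, 24 h and 6 d of Dex. For TNF they were 2.95%, 5.41% and 4.52% higher and 0.872%, 3.27% and 10.7% lower. Without TNF 6 d replicate 2 these shares were 4.29%, 6.39% and 10.4% higher and 2.83%, 6.79% and 13.5% lower for Dex, and 6.59%, 13.2% and 10.5% higher and 4.08%, 12.4% and 9.93% lower for TNF. The share was larger without that array in every comparison and direction except for genes lower in TNF 6 d.

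**Figure D2:**
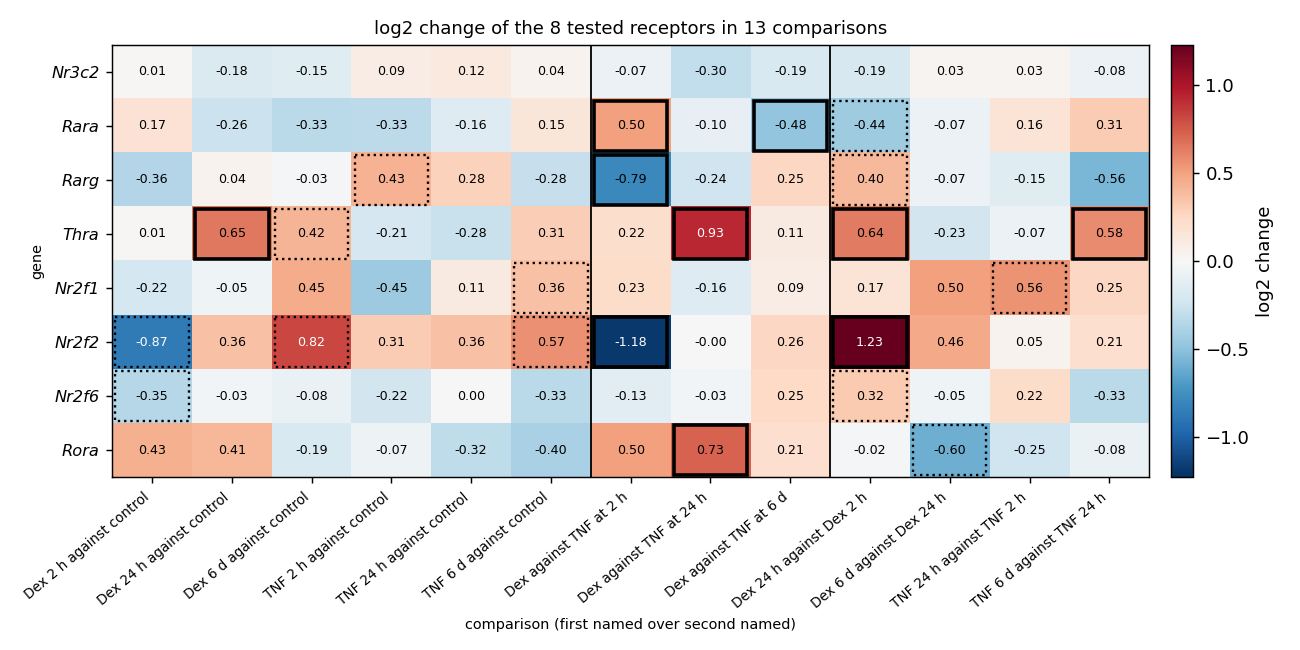
log2 change of the 8 tested receptors (rows) in 13 comparisons (columns), the first-named group over the second; solid boxes mark changes called with all 21 arrays, and dotted boxes changes called only without TNF 6 d replicate 2. The solid boxes lie on Rara, Rarg, Thra, Nr2f2 and Rora, with values from -1.18 to 1.23.

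The 2 retinoic acid receptors went opposite ways between Dex and TNF at 2 h. Rarg levels were 7.31, 7.42 and 7.11 in Dex 2 h, against 8.10, 8.08 and 8.04 in TNF 2 h. All Dex 2 h arrays lay below all TNF 2 h arrays, and the log2 difference was -0.79 ± 0.17 (SE; adjusted p = 0.00508 in limma), or 0.578-fold. The control arrays, at 7.86, 7.59 and 7.48, lay between the 2 groups without touching either. With this probe set Rarg was called in this comparison in every alternative setting, with adjusted p between 3.47e-06 and 0.0412. This includes the fits without any one array of the 2 groups or without TNF 6 d replicate 2. Its other probe set, of lower level, read 5.43, 5.68 and 5.68 in Dex 2 h, against 6.14, 5.92 and 6.25 in TNF 2 h, a difference of -0.51 ± 0.14 (SE; adjusted p = 0.0383 in limma).

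Which side of control this difference lay on was clearer for TNF than for Dex. In TNF 2 h against control, Rarg was higher by 0.43 ± 0.17 with the chosen probe set (adjusted p = 0.282 in limma, and 0.0292 without TNF 6 d replicate 2) and by 0.60 ± 0.14 with the other one (adjusted p = 0.0177 in limma), and the groups did not overlap on either probe set. In Dex 2 h against control, the chosen probe set gave -0.36 (adjusted p = 0.618) and the other one 0.09 (adjusted p = 0.9999 in limma). By mean level, Rarg was highest in TNF 2 h (8.07 ± 0.03) and TNF 24 h (7.93 ± 0.17), followed by Dex 24 h, control, Dex 6 d and TNF 6 d, and lowest in Dex 2 h (7.28 ± 0.16, SD, n = 3 each). In that order, neighbouring groups overlapped except TNF 24 h and Dex 24 h. In TNF 6 d against TNF 24 h the difference was -0.56 (adjusted p = 0.0559 in limma), and it was called without TNF 6 d replicate 1 (0.0283) or 3 (0.0171). Without TNF 6 d replicate 2, the outlying array, it was -0.36 and not called (adjusted p = 0.119).

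Rara had 1 probe set and smaller differences. Its levels were 6.73, 6.72 and 6.77 in Dex 2 h, against 6.17, 6.14 and 6.41 in TNF 2 h, with all Dex arrays above all TNF arrays. The log2 difference was 0.50 ± 0.14 (SE; adjusted p = 0.0436 in limma). It was not called without Dex 2 h replicate 1 (adjusted p = 0.122), 2 (0.116) or 3 (0.138), without TNF 2 h replicate 1 (0.164) or 2 (0.161), without the filter (0.0702), after cyclic loess (0.0679) or with the replicate number as a block (0.0653).

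At 6 d the order was the other way round. Rara levels were 6.28, 6.12 and 6.30 in Dex 6 d, against 6.84, 6.84 and 6.46 in TNF 6 d, again without overlap. The log2 difference was -0.48 ± 0.14 (SE; adjusted p = 0.0211 in limma), and -0.42 (adjusted p = 0.0369) without TNF 6 d replicate 2. Leaving out Dex 6 d replicate 2 ended the call (adjusted p = 0.0816), as did fitting only these 2 groups (0.320). The latter fit called 221 of all genes, beside 2881 with all groups, so that loss was not particular to Rara. Over the whole series, Rara group means spanned 0.51 log2 units, with every pair of neighbours in the order overlapping, and none of its 6 differences from control was called.

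Of 12 tested genes of retinoid handling and RAR targets (24 listed, 8 dim), 3 were higher and 0 lower in Dex 24 h than in control, and 2 were higher and 4 lower in Dex 6 d. Over all genes, 2.06% and 2.11% were called higher and lower in Dex 24 h, and 3.22% and 5.08% in Dex 6 d. Without the outlying array 3 were higher and 4 lower in Dex 24 h, and 4 moved in each direction in Dex 6 d. Aldh1a1, which makes retinoic acid from retinaldehyde, averaged 10.23 in Dex 24 h and 6.24 in control, a log2 change of 3.99 ± 0.43 (SE; adjusted p = 8.25e-06 in limma), and 3.80 ± 0.43 at 6 d. Cyp26b1, which degrades retinoic acid and is a retinoic acid target, rose by 1.78 ± 0.26 in Dex 6 d, and Rdh11, a retinal reductase, fell by 1.49 there (adjusted p = 0.000117 and 0.0446 in limma). In TNF 24 h 0 rose and 3 fell, among them Adh1, an alcohol dehydrogenase that acts on retinol (-1.40, adjusted p = 0.0162), with 5.41% and 3.27% of all genes called higher and lower. There 3 rose and 5 fell without the outlying array. The list's median change was 0.00 in Dex 24 h, -0.01 in Dex 6 d and -0.13 in TNF 24 h, beside -0.00, -0.02 and -0.03 over all tested genes.

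Thra carried the largest number of calls with all arrays, and these all lay on 1 of its 3 probe sets. Its levels were 9.69, 9.64 and 9.70 in Dex 24 h, against 9.02, 9.03 and 9.06 in Dex 2 h, 8.53, 8.70 and 9.03 in TNF 24 h, and 8.88, 8.98 and 9.23 in control. The Dex 24 h arrays lay close together and above every array of the other 3 groups. The log2 difference from TNF 24 h was 0.93 ± 0.15 (SE; adjusted p = 0.000220 in limma), or 1.90-fold, and it was called in every alternative setting with this probe set, without any one array, and as the mean of all probe sets (0.63; adjusted p up to 0.00835).

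Against control, the Dex 24 h difference was 0.65 ± 0.15 (SE; adjusted p = 0.0154 in limma), the only member called against control. Leaving out control replicate 1 (adjusted p = 0.0975) or 2 (0.0768), or Dex 24 h replicate 1 (0.0702), 2 (0.0521) or 3 (0.0652), ended the call, as did cyclic loess (0.138) and the mean of all probe sets (0.0911). Without TNF 6 d replicate 2 the adjusted p was 0.000735. Against Dex 2 h the Dex 24 h difference was 0.64 ± 0.15 (SE; adjusted p = 0.0188 in limma). That one was not called without Dex 2 h replicate 1 (0.0840), 2 (0.0752) or 3 (0.0650), without Dex 24 h replicate 1 (0.0829), 2 (0.0663) or 3 (0.0766), after cyclic loess (0.116) or as the mean of all probe sets (0.0701). At 6 d of Dex, Thra read 9.38, 9.60 and 9.37, above all control arrays, by 0.42 ± 0.15 (adjusted p = 0.106 in limma, and 0.0151 without TNF 6 d replicate 2).

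With TNF the later time was the higher one. Thra read 9.32, 9.39 and 9.29 in TNF 6 d, against the TNF 24 h values above, with no overlap. The log2 difference was 0.58 ± 0.15 (SE; adjusted p = 0.0283 in limma). It was not called without TNF 24 h replicate 1 (adjusted p = 0.122) or 2 (0.0809), after median centring (0.0721), when only the 2 groups were fitted (0.688) or as the mean of all probe sets, where it was 0.29 (0.225). The fit of only the 2 groups called 2 of all genes, beside 728 with all groups, so that loss was not particular to Thra. After cyclic loess the Thra difference was 0.97 (0.00947). Group means of Thra spanned 0.93 log2 units, between 9.68 ± 0.03 in Dex 24 h and 8.75 ± 0.25 in TNF 24 h (SD, n = 3 each).

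The 2 other Thra probe sets gave weaker values, and with all arrays neither was called. Without TNF 6 d replicate 2, 2 of the 3 Thra probe sets were called in Dex 24 h against control, against TNF 24 h and against Dex 2 h. For Dex 24 h against TNF 24 h they differed by 0.36 and 0.62 (adjusted p = 0.388 and 0.0884 in limma), and for Dex 24 h against control by 0.52 and 0.31 (adjusted p = 0.334 and 0.833). In TNF 6 d against TNF 24 h they disagreed, at -0.28 and 0.57 (adjusted p = 0.382 and 0.124), and the first was -0.01 without TNF 6 d replicate 2. Nr1d1, the clock repressor Rev-erb alpha, overlaps Thra in the RefSeq annotation and was looked up for that reason. Its level averaged 7.47 in Dex 24 h and 6.42 in Dex 2 h, a log2 change of 1.06 ± 0.19 (SE; adjusted p = 0.00274 in limma), while its difference between Dex and TNF at 24 h was 0.53 ± 0.19 (adjusted p = 0.0851, and 0.0147 without TNF 6 d replicate 2).

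Of 7 tested genes of thyroid hormone handling and targets (14 listed, 5 dim), 0 rose and 2 fell in TNF 24 h and 0 rose and 3 fell in TNF 6 d, where 4.52% and 10.7% of all genes were called higher and lower. At either time 0 rose and 4 fell without the outlying array. Thrsp, a lipogenic target of thyroid hormone, averaged 12.04 in TNF 24 h and 13.92 in control, a log2 change of -1.87 ± 0.19 (adjusted p = 1.96e-06 in limma). Me1, the cytosolic malic enzyme, fell in TNF 24 h (-1.32), in TNF 6 d (-1.76) and in Dex 6 d (-1.16) (adjusted p = 0.00551, 0.000712 and 0.0162 in limma). Hr, a corepressor of the thyroid hormone receptor, fell in Dex 24 h (-0.69), in Dex 6 d (-1.08) and in TNF 6 d (-1.05). Klf9, a Kruppel-like factor induced by both thyroid hormone and glucocorticoids, rose by 1.06 in Dex 6 d. The list's median change was -0.31 in TNF 24 h and -0.54 in TNF 6 d, beside -0.03 and -0.23 over all tested genes. Thrsp, Me1 and the adipocyte marker Lipe, the hormone-sensitive lipase (-1.27 in TNF 24 h), moved the same way with TNF. Of 7 tested adipocyte markers, 0 were higher, 5 lower and 2 not called in TNF 24 h. Of all genes, 5.41% and 3.27% were called higher and lower there. Without the outlying array 0 of these markers were higher and 6 lower.

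The mineralocorticoid receptor Nr3c2 had the narrowest range. Its group means lay between 6.66 ± 0.04 in Dex 24 h and 6.96 ± 0.09 in TNF 24 h (SD, n = 3 each), a span of 0.30 log2 units. Neighbouring groups in that order overlapped throughout, and limma called none of its 13 comparisons. The difference between those extremes, Dex 24 h against TNF 24 h, was -0.30 (adjusted p = 0.302 in limma, and 0.0108 with array weights). TNF 2 h replicate 2, at 7.34, was the highest array, and control replicate 1, at 6.58, the lowest.

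The genes listed as handling mineralocorticoids or as targets of the receptor, most of which also answer to the glucocorticoid receptor, moved strongly with Dex. Of 12 tested (16 listed, 2 dim), 6 rose and 0 fell in Dex 2 h, 7 rose and 0 fell in Dex 24 h, and 5 rose and 1 fell in Dex 6 d. At each time of Dex 7 rose without the outlying array, and 0, 3 and 3 fell. In Dex 2 h, 1.66% and 0.814% of all genes were called higher and lower. The list's median change was 0.94, 1.23 and 1.16 at the 3 times of Dex, beside -0.02, -0.00 and -0.02 over all tested genes. Fkbp5, a co-chaperone of steroid receptors, averaged 12.73 in Dex 2 h and 8.99 in control (3.74 ± 0.32, SE; adjusted p = 5.23e-07 in limma). Sgk1, a kinase that regulates sodium channels, rose by 2.54 ± 0.47 in Dex 2 h and by 1.97 ± 0.47 in TNF 2 h. Ptgds, a prostaglandin D synthase, rose by 2.76 in Dex 6 d. Lcn2, the lipocalin of the acute phase, rose by 5.92 ± 0.75 in Dex 24 h and by 5.33 ± 0.75 in TNF 24 h (adjusted p = 5.37e-05 and 6.68e-05 in limma). With TNF, 1 was called higher and 0 lower at 2 h, with 2.95% and 0.872% of all genes, and 1 in each direction at 24 h and 6 d. Without the outlying array, 2, 3 and 4 rose and 0, 1 and 1 fell at these times. Hsd11b1, which regenerates active glucocorticoid within the cell and is named here after its values were seen, averaged 11.07 in Dex 6 d, 10.88 in TNF 6 d and 12.87 in control, log2 changes of -1.79 ± 0.28 and -1.99 ± 0.28 (adjusted p = 0.000236 and 0.000165 in limma).

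Esr1, the alpha oestrogen receptor, was near the floor of the arrays. All 3 of its probe sets were dim, and 0 of 21 arrays lay above the threshold on the chosen one, whose values ran from 3.93 to 4.70. Its group means were 4.09 ± 0.15 in Dex 6 d, 4.16 ± 0.12 in TNF 6 d and 4.55 ± 0.13 in control (SD, n = 3 each), with no test, since it did not pass the filter. A change of Esr1 could not be measured at this signal.

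Of 10 tested genes of oestrogen handling and targets (19 listed, 7 dim), 0 rose and 2 fell in Dex 2 h, 0 rose and 3 fell in Dex 24 h, and 1 rose and 5 fell in Dex 6 d. With TNF, 0 rose and 3 fell at 2 h, 3 rose and 4 fell at 24 h, and 2 moved in each direction at 6 d. Of all genes, 3.22% were called higher and 5.08% lower in Dex 6 d, and 5.41% and 3.27% in TNF 24 h. With the outlying array left out, 0, 1 and 2 rose and 2, 4 and 5 fell with Dex, and 0, 3 and 2 rose and 4, 4 and 2 fell with TNF. Gper1, the membrane oestrogen receptor, averaged 5.77 in Dex 2 h, 5.70 in TNF 2 h and 7.54 in control, and fell in both (-1.77 ± 0.30 and -1.84 ± 0.30, adjusted p = 0.00129 and 0.000560 in limma). Nrip1, a corepressor of nuclear receptors that restrains oxidative genes in fat cells, fell in TNF 2 h (-1.91 ± 0.28) and in Dex 2 h (-1.09 ± 0.28). Igf1, the insulin-like growth factor, fell by 1.84 ± 0.46 in Dex 24 h. Greb1, an oestrogen-induced gene, fell in TNF 6 d (-1.41 ± 0.30) and in Dex 6 d (-1.25 ± 0.30).

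Nr2f2, also known as COUP-TFII, had the widest range of the set, 1.69 log2 units between group means, and its low point was Dex 2 h. Levels were 8.48, 7.75 and 8.71 in Dex 2 h, against 9.56, 9.45 and 9.48 in TNF 2 h, and the log2 difference was -1.18 ± 0.33 (SE; adjusted p = 0.0357 in limma), or 0.440-fold. The later Dex times read 9.67, 9.59 and 9.37 at 24 h and 9.94, 9.85 and 10.23 at 6 d. All Dex 2 h arrays lay below every TNF 2 h, Dex 24 h and Dex 6 d array. Dex 24 h against Dex 2 h gave 1.23 ± 0.33 (SE; adjusted p = 0.0431 in limma).

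Both calls were lost when certain single arrays were left out. Of the fits that lost them, the differences shrank most without Dex 2 h replicate 2 (-0.90 and 0.95). Without a TNF 2 h array the first difference stayed between -1.15 and -1.21, with a larger SE (0.38). Dex against TNF at 2 h was not called without Dex 2 h replicate 1 (adjusted p = 0.0708) or 2 (0.237, with a difference of -0.90), without TNF 2 h replicate 1 (0.116), 2 (0.0880) or 3 (0.1001), or after median centring (0.0783). Dex 24 h against Dex 2 h was not called without Dex 2 h replicate 1 (0.0957) or 2 (0.257), without Dex 24 h replicate 1 (0.169), 2 (0.145) or 3 (0.0861), without the filter (0.0598) or after median centring (0.0807). Both were called without TNF 6 d replicate 2 (0.00213 and 0.00198 in limma), and as the mean of all probe sets, where they were smaller (-0.76 and 0.80).

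Against control, the call in Dex 2 h depended on the probe set. Control read 9.64, 9.53 and 8.38 on the chosen probe set, so that control replicate 3 lay among the Dex 2 h arrays, and the log2 difference of -0.87 ± 0.33 was not called (adjusted p = 0.325 in limma). It was called without control replicate 3 (-1.27, adjusted p = 0.0394) and without TNF 6 d replicate 2 (-0.87, adjusted p = 0.0423). On the next probe set, 1416158_at, levels were 5.04, 4.70 and 5.00 in Dex 2 h, against 6.19, 6.08 and 6.56 in control, where replicate 3 was the highest and not the lowest. There Nr2f2 fell by 1.36 ± 0.20 (adjusted p = 0.000246 in limma). On 1436475_at levels were 4.85, 5.34 and 5.19 in Dex 2 h, against 6.06, 6.11 and 6.13 in control, a difference of -0.97 ± 0.15 (adjusted p = 0.000704). On both probe sets the Dex 2 h levels lay at or below the filter threshold of 5.34, so the size of the fall is uncertain. The probe set 1416160_at was dim in most groups and passed the filter through the remaining ones. Its difference of -0.90 ± 0.14 is therefore not counted as support. The 2 other differences were also seen on 1416158_at and 1436475_at, with adjusted p of at most 0.000234 in limma. They were -1.26 and -1.14 for Dex against TNF at 2 h, and 1.43 and 1.11 for Dex 24 h against Dex 2 h. On the mostly dim 1416160_at they were -0.76 and 0.75. The remaining 2 Nr2f2 probe sets did not pass the filter.

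**Figure D3:**
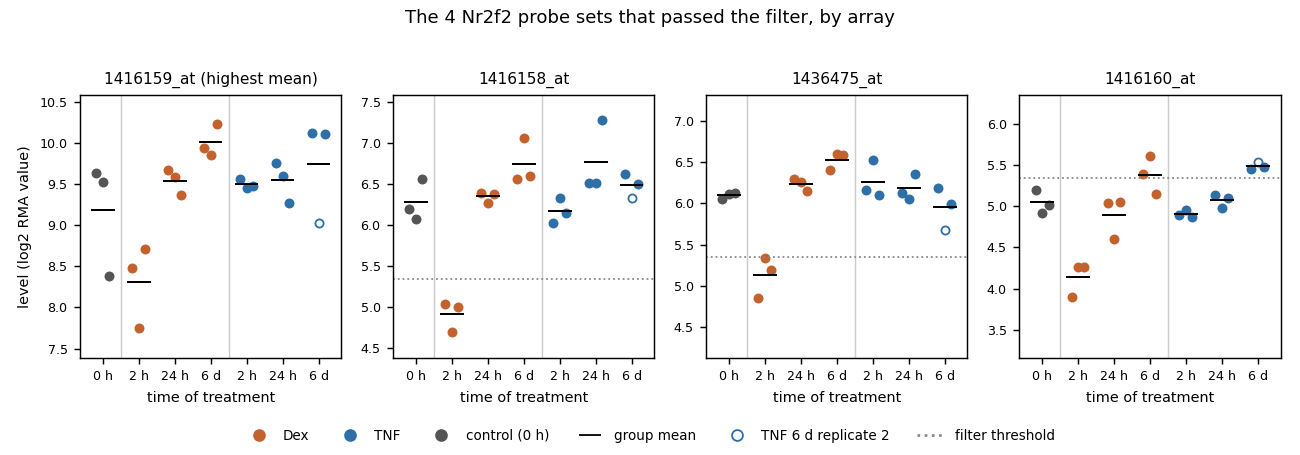
Level (log2 RMA value) of Nr2f2 on each array for the 4 probe sets that passed the filter, by time of treatment with Dex (orange) or TNF (blue) after the control at 0 h (grey); lines are group means, the open point is TNF 6 d replicate 2 and the dotted line is the filter threshold of 5.34. On 3 of the 4 probe sets all Dex 2 h arrays lie below all control arrays, and on 1416159_at control replicate 3, at 8.38, lies among them.

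At 6 d Nr2f2 stood above the 0 h control on the chosen probe set with either agent. No untreated group at 6 d was measured. Against the control values above, Dex 6 d was higher by 0.82 ± 0.33, without overlap (adjusted p = 0.162 in limma, and 0.0227 without TNF 6 d replicate 2). TNF 6 d read 10.12, 9.02 and 10.11, of which replicate 2 is the outlying array, and differed from control by 0.57 (adjusted p = 0.212 in limma), or by 0.93 without that array (adjusted p = 0.0246). With all arrays the other Nr2f2 probe sets called neither, except the mostly dim 1416160_at in TNF 6 d (0.44, adjusted p = 0.0436 in limma). All 4 tested probe sets were higher than control in Dex 6 d, but in TNF 6 d 3 were higher and 1 was lower (-0.15). Without TNF 6 d replicate 2, 2 of the 4 were called in Dex 6 d and 1 in TNF 6 d. As the mean of all its probe sets, Nr2f2 fell by 0.70 in Dex 2 h, rose by 0.44 in Dex 6 d and rose by 0.32 in TNF 6 d (adjusted p = 3.17e-05, 0.00180 and 0.0177 in limma).

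Nr2f1, also called COUP-TFI and measured by 1 probe set, was lowest in TNF 2 h and highest in Dex 6 d. Its levels were 5.74, 6.37 and 6.04 in TNF 2 h, 6.49, 6.39 and 6.94 in TNF 24 h and 7.06, 6.48 and 7.04 in TNF 6 d, with 6.30, 6.60 and 6.58 in control. TNF 2 h and TNF 24 h did not overlap, and the log2 difference of TNF 24 h from TNF 2 h was 0.56 ± 0.20 (adjusted p = 0.131 in limma, and 0.0222 without TNF 6 d replicate 2). TNF 6 d differed from control by 0.36 (adjusted p = 0.190) and by 0.56 without that array (adjusted p = 0.0425). Dex 6 d, at 6.68, 7.19 and 6.99, lay above all control arrays by 0.45 ± 0.20 (adjusted p = 0.225 in limma). None of the 13 comparisons was called with all arrays.

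Nr2f6, an orphan receptor related to the COUP-TFs, had a narrow range. Its levels were 8.72, 8.60 and 8.54 in Dex 2 h, against 8.90, 8.84 and 9.18 in control, with no overlap. The log2 difference was -0.35 ± 0.14 (adjusted p = 0.415 in limma, and 0.0456 without TNF 6 d replicate 2). Its group means spanned 0.36, between 8.62 ± 0.09 in Dex 2 h and 8.98 ± 0.12 in TNF 24 h (SD, n = 3 each). The second probe set, with levels of 8.02 to 9.44, was highest on TNF 6 d replicate 2, where the chosen one was lowest, and it called nothing with all arrays.

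Of 11 tested COUP-TF partners and targets (18 listed, 6 dim), 3 genes were called against control. When the outlying array was left out, 0, 1 and 1 rose and 1, 0 and 0 fell at 2 h, 24 h and 6 d of Dex, and 2 rose at each time of TNF with 0, 0 and 1 falling. Sox9, a transcription factor of mesenchymal precursors, fell by 0.84 ± 0.21 in Dex 2 h (adjusted p = 0.0416 in limma). Nrp2, a semaphorin and VEGF-C receptor, averaged 10.41 in TNF 24 h and 7.49 in control, a rise of 2.91 ± 0.47 (adjusted p = 0.000345), and rose by 1.74 ± 0.47 in TNF 6 d, or by 2.65 without TNF 6 d replicate 2. Nr2c1, the testicular orphan receptor, fell by 0.47 in TNF 6 d (adjusted p = 0.0372). The list's median changes lay between -0.09 and 0.15 over the 6 comparisons with control.

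Rora, the alpha member of the ROR group, was high in Dex at 2 h and 24 h. Its levels were 8.49, 8.69 and 8.43 in Dex 2 h and 8.55, 8.58 and 8.42 in Dex 24 h, against 7.89, 7.82 and 7.65 in TNF 24 h, and 8.05, 8.06 and 8.20 in control. All arrays of these 2 Dex groups lay above all TNF 24 h and control arrays. The log2 difference between Dex and TNF at 24 h was 0.73 ± 0.19 (SE; adjusted p = 0.0119 in limma), or 1.65-fold, and with this probe set was called in all other settings (adjusted p up to 0.0290) but not without Dex 24 h replicate 2 (0.0513) or TNF 24 h replicate 3 (0.0539). As the mean of all probe sets it was 0.47 (adjusted p = 0.00813).

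Against control, Rora was higher by 0.43 ± 0.19 in Dex 2 h and by 0.41 ± 0.19 in Dex 24 h, neither called with all arrays (adjusted p = 0.506 and 0.386 in limma) nor without TNF 6 d replicate 2 (0.162 and 0.128). Both were called with array weights (0.00675 and 0.000661) and when only the 2 groups compared were fitted (0.0466 and 0.0221). At 2 h, Dex against TNF gave 0.50 (adjusted p = 0.176 in limma), with TNF 2 h at 8.01, 8.49 and 7.61. Without TNF 2 h replicate 2, the array at 8.49, it was 0.73 (adjusted p = 0.0168). Dex 6 d, at 7.88, 8.12 and 7.75, lay below all Dex 24 h arrays by 0.60 ± 0.19 (adjusted p = 0.288, and 0.0470 without TNF 6 d replicate 2). In order of mean level the groups ran from Dex 2 h and Dex 24 h through control, TNF 2 h, Dex 6 d and TNF 24 h to TNF 6 d (7.71 ± 0.20, SD, n = 3), and Dex 24 h and control were the only neighbours without overlap.

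Rora had 9 probe sets, of which 8 passed the filter, and they did not give 1 pattern. For Dex against TNF at 24 h, 7 of the 8 were positive, from 0.23 to 1.29, and 1441085_at was at -0.02. Called were 2 of the 8 with all arrays, and 3 without TNF 6 d replicate 2. Apart from the chosen one, 1420583_a_at was called (1.29 ± 0.37, SE; adjusted p = 0.0240 in limma). There the Dex 24 h arrays read 8.24, 8.05 and 7.71, against 7.31, 7.01 and 5.81 in TNF 24 h, the last of these far below its group. In Dex 2 h against control, 1436325_at and 1436326_at were each higher by 0.90 (adjusted p = 0.136 and 0.411 in limma, and 0.0331 and 0.00996 without TNF 6 d replicate 2).

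**Figure D4:**
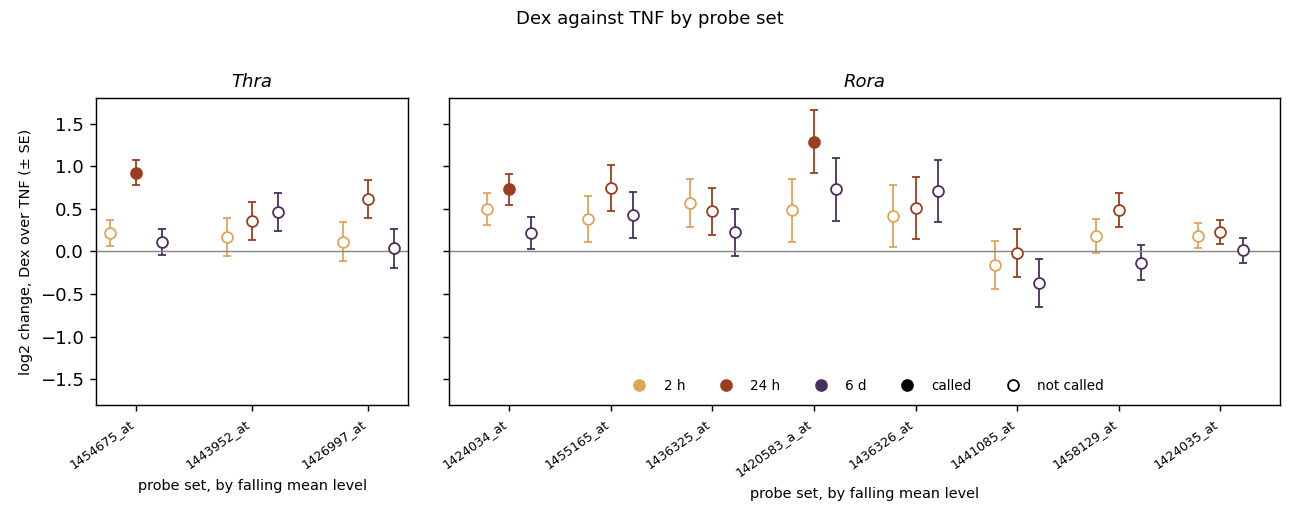
log2 change of Dex over TNF (± SE) at 2 h, 24 h and 6 d for each Thra and Rora probe set that passed the filter, ordered by falling mean level; filled points were called. At 24 h, with all arrays, 1 of 3 Thra probe sets (0.93) and 2 of 8 Rora probe sets (0.73 and 1.29) were called, and 1441085_at lies at -0.02.

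Of 14 tested ROR targets and partners (19 listed, 4 dim), 2 rose and 1 fell in Dex 2 h, 1 rose and 2 fell in Dex 24 h, and 1 moved in each direction in Dex 6 d. With TNF 0 rose and 2 fell at 2 h, 0 rose and 2 fell at 24 h, and 0 rose and 6 fell at 6 d, where 4.52% and 10.7% of all genes were called higher and lower. Without TNF 6 d replicate 2, 3, 1 and 4 rose and 3, 2 and 3 fell with Dex, and 0 rose at any time and 3, 4 and 4 fell with TNF. Apoc3, an apolipoprotein that slows triglyceride clearance, averaged 8.72, 12.13 and 12.70 at 2 h, 24 h and 6 d of Dex, 5.71 and 4.61 at 24 h and 6 d of TNF, and 7.52 in control. It rose by 5.18 ± 0.27 in Dex 6 d and fell by 2.91 ± 0.27 in TNF 6 d (adjusted p = 3.72e-10 and 1.54e-06 in limma). Nfil3, a repressor of the clock, rose by 2.07 ± 0.28 in Dex 2 h, and Dbp, a clock output activator, fell by 1.09 ± 0.28 in TNF 2 h. Arntl, the clock activator also named Bmal1, fell by 1.04 ± 0.33 in TNF 6 d (adjusted p = 0.0418 in limma), and changed by -0.50 without the outlying array, when it was not called (0.114). The list's median was -0.64 in TNF 6 d, beside -0.23 over all tested genes.

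Of 23 tested nuclear receptors outside the set (40 listed, 12 dim), 2, 1 and 2 rose and 0 fell at the 3 times of Dex. With TNF, 0 rose and 2 fell at 2 h, 1 moved in each direction at 24 h, and 1 rose and 5 fell at 6 d, where 4.52% and 10.7% of all genes were called higher and lower. Without the outlying array 3, 2 and 2 rose and 3, 1 and 3 fell with Dex, and 1, 2 and 1 rose and 3, 4 and 6 fell with TNF. Vdr, the vitamin D receptor, rose by 1.04 ± 0.24 in Dex 2 h, by 1.89 ± 0.24 in Dex 6 d and by 1.01 ± 0.24 in TNF 6 d. Pparg, the master regulator of fat cell formation, fell by 1.40 ± 0.35 in TNF 2 h and by 1.38 ± 0.35 in TNF 6 d. Without the outlying array its change in TNF 6 d was -0.71. Rxrg, a partner of many receptors including the RARs and Thra, fell by 1.05 ± 0.26 in TNF 6 d, and Ppard, a fatty acid sensor, rose by 0.93 ± 0.27 in TNF 24 h. Of 25 tested corepressors and coactivators (27 listed), at most 2 were called in any comparison with control using all arrays. Without the outlying array the most were 4 higher and 5 lower in TNF 24 h, with 5 higher and 1 lower in Dex 6 d. Besides Nrip1, the calls included Ppargc1b, a coactivator of mitochondrial genes, which averaged 7.92 in TNF 2 h, 8.68 in Dex 2 h and 9.90 in control and fell in both (-1.98 ± 0.26 and -1.23 ± 0.26, adjusted p = 4.73e-05 and 0.0101 in limma). Ppargc1b was higher in Dex 6 d, where it averaged 10.77, a log2 change of 0.87 ± 0.26 (adjusted p = 0.0425 in limma).

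For each tested member, the genes most like it were those with the highest Pearson correlation of level over 20 arrays, all but the outlying one, which share the 7 groups and the same normalization. Thra was most like Tmem106b (r = 0.915) and Gas6 (0.913), Rora most like Aldh1l1 (0.914) and Cyrib (0.889), and Rarg most like Nab2 (0.894) and Apobr (0.894). Nr2f1 was followed most closely by Hs1bp3 (0.891) and Kdm2b (0.887), and Nr2f2 by Pcf11 and Gata6 (both 0.881). For Nr3c2 they were Ccdc43 and Zfp27 (both 0.870), for Nr2f6 Casp9 (0.821) and Plekhm1 (0.817), and for Rara Fgf2 (0.819) and Pmp22 (0.808). With all 21 arrays Zfp27, Fgf2, Nab2, Hs1bp3, Casp9 and Aldh1l1 were each the most correlated gene of their member, while Ccdc43 dropped to 0.118, Kdm2b to 0.243, Tmem106b to 0.433, Pmp22 to 0.476 and Gata6 to 0.569. Among members, Rara and Rarg were correlated at -0.69 and Nr2f2 and Rora at -0.59 over the 20 arrays.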

How the data were processed

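Total RNA was hybridised to 1-colour Affymetrix mouse arrays. The deposited values are RMA values per the submitters' processing notes, with no version given; the authors' deposited table runs from 2.70 to 15.06, and the values are taken here as log2, since no label states the scale. RMA corrects background, quantile-normalizes all arrays together and summarises probes, so a level is relative within a probe set, and levels of different probe sets were not compared. The number of arrays limits the precision. No column of the table was left unmatched to a sample (0).

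Of 45101 probe sets, 34958 had 1 gene symbol in the platform annotation, 932 several and 9211 none; 34754 symbols were updated through Entrez identifiers and 204 were kept. Per gene, the probe set with the highest mean over 21 arrays was used. Of 18194 genes, 12156 had at least 3 arrays above the median of all values and 6038 did not. The fit used limma 3.58.1 in R 4.3.3 (1 mean per group, all 21 arrays, empirical Bayes with trend, two-sided, Benjamini-Hochberg adjustment, called below 0.05). It was tested on simulated data with known changes.

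The members, the gene lists, the marker lists and the outlying array were chosen with earlier results of these data known. Named were all 9 members, up to 4 genes per list with the largest called change against control, and any call of a list with at most 3; exceptions are marked where they appear. For each tested member the 2 most correlated genes over 20 arrays were named. Alternatives were: no filter, a stricter filter (percentile 60), averaging a gene's probe sets, each other probe set, median centring, cyclic loess, array weights, a robust empirical Bayes step, a replicate block, a fit to the 2 groups compared alone, all 21 or 20 arrays, and each array left out. The labels number the replicates 1 to 3 in each group. Same-numbered arrays deviated together, with all correlations over 0.1, in 2 of 13 comparisons: 0.233 to 0.447 where Dex 24 h was set against control, and 0.207 to 0.270 where it was set against TNF 24 h. No pair of arrays held identical values (0 pairs).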

Additional observations from a re-analysis of the deposited data

Results flagged for a closer look

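In 3 cases, changes between neighbouring times of the same treatment passed the test of that difference itself, so the effects against the shared control differed between those times. Thra in Dex 24 h exceeded Dex 2 h by 0.639 on the log2 scale (adjusted p = 0.0188 in limma), with all 3 Dex 24 h arrays above all 3 Dex 2 h arrays. Nr2f2 in Dex 24 h exceeded Dex 2 h by 1.23 (adjusted p = 0.0431), also without overlap. Thra in TNF 6 d exceeded TNF 24 h by 0.582 (adjusted p = 0.0283), again without overlap. Each lost its call when 1 of several arrays was left out, as given above, and the cause of each was not tested.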

How the results depend on the processing

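With 3 arrays a group, leaving out 1 array often ended a call, and the group then had fewer arrays. For Thra in Dex 24 h against Dex 2 h the difference itself stayed between 0.63 and 0.66 over these fits. Each array of the groups compared was left out in turn, and TNF 6 d replicate 2 in every comparison. The number of members called then ranged from 0 to 2 for Dex 2 h, 0 to 1 for Dex 24 h, 0 to 2 for Dex 6 d, 0 to 1 for TNF 2 h, 0 to 0 for TNF 24 h and 0 to 2 for TNF 6 d, each against control. For Dex against TNF it ranged from 1 to 3 at 2 h, 1 to 2 at 24 h and 0 to 1 at 6 d. Between times it ranged from 0 to 5 for Dex 24 h against Dex 2 h, 0 to 1 for Dex 6 d against Dex 24 h, 0 to 1 for TNF 24 h against TNF 2 h and 0 to 3 for TNF 6 d against TNF 24 h. The count of 5 was reached without TNF 6 d replicate 2, where 1640 genes were called, beside 440 with all arrays. Array weights moved the counts against control to 4, 3 and 3 for Dex at 2 h, 24 h and 6 d and to 2, 1 and 4 for TNF. Of the 12156 genes, 2013, 4856 and 4789 were then called for Dex and 3066, 4902 and 5125 for TNF. The weights gave 5 and 4 members for Dex against TNF at 2 h and 24 h, with 3388 and 6335 genes. Between times they gave 5 for Dex 24 h against Dex 2 h (4122 genes) and 3 for Dex 6 d against Dex 24 h (2725 genes). They gave 1 for TNF 24 h against TNF 2 h (4054 genes) and 2 for TNF 6 d against TNF 24 h (2778 genes). The mean of all probe sets gave 1 in Dex 2 h, 0 in Dex 24 h, 1 in Dex 6 d, 1 in TNF 2 h and 1 in TNF 6 d against control, and 1 for Dex 24 h against Dex 2 h. Cyclic loess gave 0 in Dex 24 h and 3 in TNF 6 d against control, 1 for Dex 24 h against Dex 2 h and 1 for TNF 24 h against TNF 2 h. In the same order, 785, 2256, 745 and 1265 genes were called after cyclic loess. Median centring gave 1 for Dex 24 h against Dex 2 h (364 genes) and 0 for TNF 6 d against TNF 24 h (645 genes). Testing without the filter gave 1 for Dex 24 h against Dex 2 h as well. Counts over all genes are not given for the fit without the filter or for the mean of all probe sets. The member counts of these settings are therefore not read as a result about the receptors. Fitting only the 2 groups compared gave 1 in Dex 2 h and 2 in Dex 24 h against control, 0 for Dex against TNF at 6 d, 5 for Dex 24 h against Dex 2 h, 1 for Dex 6 d against Dex 24 h and 0 for TNF 6 d against TNF 24 h. In the same order, 874, 1860, 221, 2929, 596 and 2 genes were called in these fits. With the replicate number as a block, 2 members in place of 3 were called for Dex against TNF at 2 h (708 genes), and no other member count changed. The replicate numbers were not shown to pair the samples of that comparison. Of the called changes, 2 turned their direction, both on other probe sets: Rora between Dex and TNF at 24 h was -0.0165 on 1441085_at, and Thra in TNF 6 d against TNF 24 h was -0.277 on 1443952_at. Cyclic loess moved the median of all genes by 0.24 in TNF 6 d against control, by -0.24 for Dex against TNF at 6 d and by 0.22 for TNF 6 d against TNF 24 h. Counts over all genes moved as well, in TNF 6 d against control from 29 with only the 2 groups fitted to 5125 with array weights, beside 1851. The cause of these shifts was not tested. Signal near the threshold limits Esr1, and 6 of 28 probe sets gave no test.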
